A study of Rattus norvegicus with 16 samples.

Results

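Of the 16 arrays in the series, 2 were described here: those labelled NARA 4 h replicate 1 and NARA 4 h replicate 4. The authors left both out of their analysis for low correlation with the other arrays and for their position in a principal component plot, per the series' design text. A further array, vehicle 48 h replicate 1, was left out as well, so that 13 of 16 were kept. The 2 arrays were thus chosen by their measured values, and every difference below was computed from the same probe sets. It is therefore given as a description, with no test, and it is not read as an effect of the treatment. The arrays are called set-aside replicates 1 and 4, and pairs of values give replicate 1 first.

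The study asked how a nonsteroidal androgen receptor agonist (NARA) acts on satellite cells of the rat levator ani, a pelvic muscle whose growth depends on androgens. By the labels, satellite cells at passage 5 were kept for 4 h or 48 h in either 0.2% DMSO, the vehicle, or 10 nM NARA, in medium with charcoal-stripped serum, which holds few steroids. Each of the 4 groups had 4 arrays, and the comparison here was with vehicle 4 h replicates 1 to 4. Strain, sex, age and number of animals were not given in the sources used here, and the titles number biological replicates but do not say which came from separate cultures.

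Hepatocytes, the main cells of the liver, secrete most plasma proteins, make urea and glucose, form bile acids and modify drugs and hormones. A set of transcription factors that includes the HNF1, HNF4, FOXA and C/EBP families keeps these genes active together. Fibroblasts and other mesenchymal cells grown on plastic instead make collagen-rich matrix, build contractile actin fibres and divide.

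Expression was measured as a MAS5 signal, a linear intensity in arbitrary units. Signals were compared as log2(signal + 50), which keeps dim probe sets from giving extreme ratios and understates their differences. Of 31042 non-control probe sets, 22751 averaged 300 or more across the 6 arrays and were measured here. They covered 12002 genes, each represented by its brightest probe set. Vehicle means are given ± SD over the 4 arrays (n = 4). A probe set or gene is called higher or lower where each set-aside array differed from the vehicle 4 h mean by at least 4-fold in that direction and lay beyond all 4 vehicle arrays.

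The set-aside arrays correlated with each other at r = 0.894 over the probe sets, which do not count as replicates. Against the other 14, the coefficient was 0.660 to 0.673 for replicate 1 and 0.645 to 0.659 for replicate 4, compared with 0.930 to 0.956 among the 13 kept arrays. Their control probe sets also differed in RNA quality measures. The 3'/5' signal ratio, which is high where RNA is broken or incompletely copied, was 3.34 and 2.15 for Gapdh and 7.98 and 4.96 for actin. In the other 14 arrays it lay between 0.989 and 1.36 for Gapdh and between 2.42 and 3.38 for actin. Median signals were 651 and 786, against 539 to 648 in the others, although the trimmed mean of every array had been scaled to 1500. The part of RNA quality in the differences below was not tested. Since these are bulk samples, fewer cells of a type and less RNA per cell cannot be told apart.

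By the 4-fold rule, 1591 probe sets (6.99% of those measured) were higher in both set-aside arrays and 1270 (5.58%) were lower. In genes these were 963 higher (8.02% of 12002) and 794 lower (6.62%). The minimum of 300 counts the set-aside arrays too, so a gene dim in the vehicle arrays was measured only where it was bright in the set-aside ones, and counts and medians of higher genes are no support for their direction. Because the arrays were selected on these values, the shares serve as a background for the counts below and nothing more is read from them. Of the called probe sets, 1582 of 1591 higher and 1252 of 1270 lower ones also lay beyond all 14 other arrays, including the 2 that share the label NARA 4 h. Among 4914 probe sets past 4-fold in at least 1 set-aside array, 4742 (96.5%) differed in the same direction in the other. The probe sets nearest the threshold were an unnamed one just inside at a log2 difference of 2.001 (signals of 864 and 1227 against a vehicle mean of 207) and one of Ubr2 just outside at 1.999 (1857 and 1806 against 485). On the lower side an unnamed probe set just inside had -2.001 (322 and 487 against 2105) and one of Hpcal1 just outside had -1.997 (413 and 1050.4 against 4366).

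**Figure D1:**
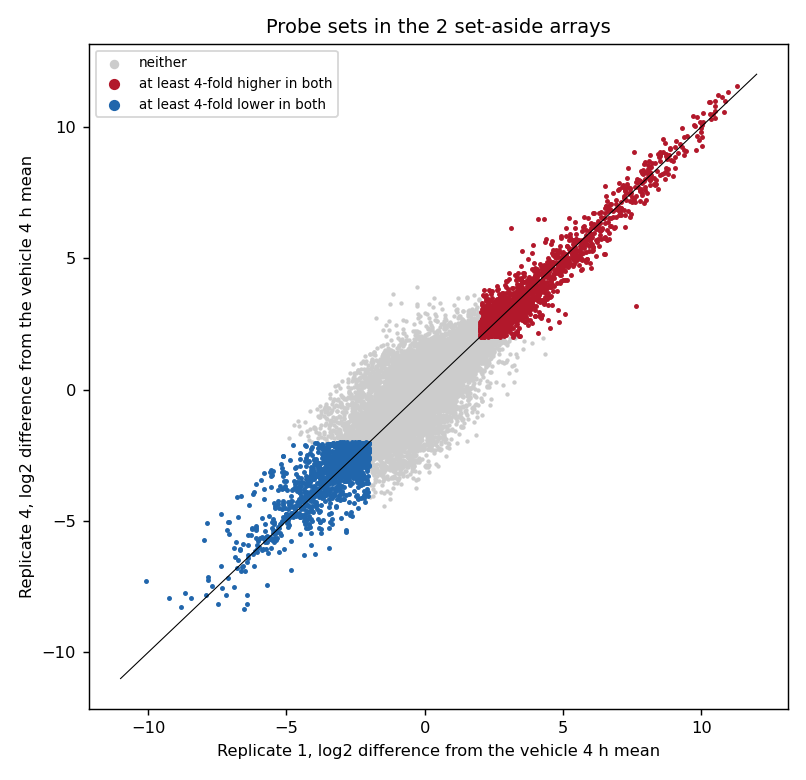
Log2 difference from the vehicle 4 h mean in set-aside replicate 1 (horizontal axis) and replicate 4 (vertical axis), 1 point for each of the 22751 probe sets measured. Red points are the 1591 higher and blue points the 1270 lower in both arrays, and most lie along the line of equal values, which reaches further from 0 on the higher side.

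Higher differences reached greater sizes than lower ones. At 64-fold, 186 genes were higher and 27 lower, and at 1024-fold 14 were higher and 0 lower. The median higher probe set had a vehicle mean of 258 and reached 4431 and 4181, and the median lower one had a vehicle mean of 4542 and signals of 355 and 399. In 883 of the 1591 higher probe sets (55.5%) the vehicle mean was under 300, so the size of these differences depends on a dim signal and on the offset. Scaling each array by its median signal in place of the trimmed mean moved the median of all genes from -0.06 and -0.03 to -0.21 and -0.45. It also moved the share of higher calls from 55.6% to 44.0%, so the balance between higher and lower is not fixed by the data.

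All 5 markers given for liver cells stood far above every other array. Albumin (Alb), the main plasma protein, had signals of 191486 and 288154 in the set-aside arrays and of 979.7, 659, 479 and 537 in vehicle 4 h replicates 1 to 4. Transthyretin (Ttr), a carrier of thyroid hormone and retinol, gave 142003 and 165127 against 693, 643, 663 and 602. Apolipoprotein A1 (Apoa1), the main protein of high-density lipoprotein, gave 135653 and 100454 against 81, 49.4, 80.8 and 182. For each of these genes the 2 values were above all 14 other arrays, whose highest were 979.7 for Alb, 1010.4 for Ttr and 245 for Apoa1.

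The fibrinogen alpha chain (Fga), a clotting protein, reached 116975 and 180830, against 12.4, 32.6, 174 and 13 in the vehicle arrays. Carbamoyl phosphate synthetase 1 (Cps1), the entry enzyme of the urea cycle, reached 133931 and 134719, against 151, 397, 250.3 and 275. The log2 differences were 8.12 and 8.71 for Alb, 7.67 and 7.88 for Ttr, 9.91 and 9.48 for Apoa1, 10.31 and 10.94 for Fga and 8.77 and 8.78 for Cps1. Further probe sets of Alb, Fga and Cps1 differed in the same direction, by 5.90 to 10.52 on the log2 scale. NARA 4 h replicates 2 and 3, which carry the same label, had Alb signals of 552 and 431 and Cps1 signals of 135 and 293, within the range of the other arrays. These levels go against the labels of the 2 set-aside arrays, which name cultured satellite cells, and they come from the values that set the arrays apart.

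**Figure D2:**
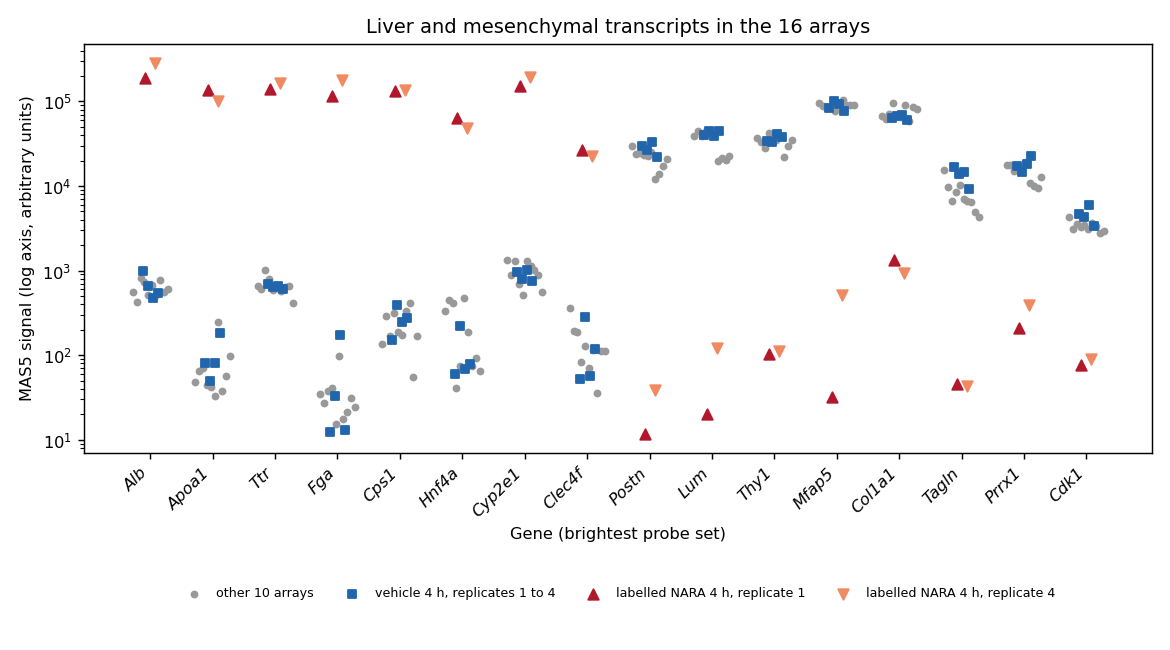
MAS5 signal on a log axis for 8 genes that were higher and 8 that were lower in the set-aside arrays, 1 symbol per array. The triangles of the 2 set-aside arrays stand apart from the squares (vehicle 4 h) and dots (other 10 arrays) in every gene shown; levels of different genes are not comparable, since each has its own probes.

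The promoters of 3 of these markers and of 3 genes at the other extreme are shown because the genes of each group stood together and short letter strings bound by liver factors can be looked for in them. They were taken from RefSeq (GRCr8) and run from 250 bases before to 50 bases after the gene's start. A total of 4 strings were searched on both strands: GTTAAT for HNF1, CAAAGTCCA for HNF4, TTGCGCAA for C/EBP and TATAAA for the TATA box. Capitals mark the matches, and each promoter printed held 1. Alb lies at chr14:17906930-17907229 on the minus strand, with HNF1 letters 82 bases before the start. Fga lies at chr2:170671919-170672218 (plus strand), with HNF1 letters 52 bases before. Cps1 lies at chr9:76063613-76063912 (plus strand), with HNF4 letters 71 bases before. Among the lower genes, Postn at chr2:140677811-140678110 and S100a4 at chr2:178388279-178388578 (both plus strand) held TATA letters 44 and 31 bases before. Lum at chr7:34245456-34245755 (plus strand) held HNF1 letters 5 bases before. Igfbp6, a further lower gene that was searched but is not printed, held HNF1 letters 43 bases after the start. The string was thus not limited to higher genes. Ttr held none of the 4 strings, and Apoa1 was not in the promoter table.
Alb: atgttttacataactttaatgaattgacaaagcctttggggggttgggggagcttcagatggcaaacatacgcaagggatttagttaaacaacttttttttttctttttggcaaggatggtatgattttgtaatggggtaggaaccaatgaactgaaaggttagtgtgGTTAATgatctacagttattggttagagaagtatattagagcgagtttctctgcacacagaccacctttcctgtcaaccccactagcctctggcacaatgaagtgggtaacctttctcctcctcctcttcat
Fga: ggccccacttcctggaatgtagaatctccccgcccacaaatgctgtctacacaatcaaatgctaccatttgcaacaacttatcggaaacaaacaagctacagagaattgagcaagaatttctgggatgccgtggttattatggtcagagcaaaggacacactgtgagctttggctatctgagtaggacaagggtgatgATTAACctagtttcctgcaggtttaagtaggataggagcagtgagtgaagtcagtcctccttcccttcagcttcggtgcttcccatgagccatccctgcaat
Cps1: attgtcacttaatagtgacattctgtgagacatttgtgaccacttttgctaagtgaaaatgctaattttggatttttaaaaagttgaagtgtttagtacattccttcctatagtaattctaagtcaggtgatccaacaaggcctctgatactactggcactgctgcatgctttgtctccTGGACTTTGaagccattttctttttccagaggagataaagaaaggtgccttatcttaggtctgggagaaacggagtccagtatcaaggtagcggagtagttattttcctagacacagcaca
Postn: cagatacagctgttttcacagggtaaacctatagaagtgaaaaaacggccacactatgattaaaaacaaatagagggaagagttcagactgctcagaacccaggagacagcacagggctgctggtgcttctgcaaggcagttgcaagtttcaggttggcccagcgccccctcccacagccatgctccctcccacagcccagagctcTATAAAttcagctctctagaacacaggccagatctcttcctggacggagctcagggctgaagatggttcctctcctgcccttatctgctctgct
S100a4: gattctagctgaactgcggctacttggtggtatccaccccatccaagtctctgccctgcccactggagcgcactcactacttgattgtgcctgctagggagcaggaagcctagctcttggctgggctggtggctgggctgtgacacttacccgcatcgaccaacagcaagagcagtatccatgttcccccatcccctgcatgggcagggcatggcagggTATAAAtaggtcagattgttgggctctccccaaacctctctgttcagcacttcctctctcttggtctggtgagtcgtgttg
Lum: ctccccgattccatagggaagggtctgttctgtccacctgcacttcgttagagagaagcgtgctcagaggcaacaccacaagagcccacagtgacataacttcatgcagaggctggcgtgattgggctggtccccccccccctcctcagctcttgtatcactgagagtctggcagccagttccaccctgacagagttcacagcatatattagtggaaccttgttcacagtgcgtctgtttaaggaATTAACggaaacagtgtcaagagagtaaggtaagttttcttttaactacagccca

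Over the promoter table, 777 of the 963 higher genes and 648 of the 794 lower genes had an entry. HNF1 letters were in 70 of the 777 (9.01%) and in 32 of the 648 (4.94%), against 4.61% of 9973 measured genes with an entry and 7.37% of all 27457 promoters. Among the 149 genes with an entry that were at least 64-fold higher the share was 20.8%. HNF4 letters were in 12 of the 777 (1.54%) and in 1 of the 648 (0.154%), against 0.341% of measured genes. C/EBP letters were rare throughout, in 1 promoter of each direction. TATA letters were in 21.5% of the promoters of genes at least 64-fold higher and in 18.3% of those at least 16-fold lower, against 7.60% of measured genes. Base composition differed from that of all measured genes in the higher group but hardly in the lower group. The median GC content was 50% in genes at least 64-fold higher, 60.8% in those at least 16-fold lower and 60.7% in all measured genes. The part of base composition in these shares was not tested. A match to letters is not a bound site.

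Many of the 25 genes with the greatest higher differences encode secreted plasma proteins. Of 19 measured genes for plasma carriers, 19 were higher, with median log2 differences of 8.12 and 8.33, beside -0.06 and -0.03 over all genes. Retinol-binding protein 4 (Rbp4), which carries vitamin A, stood at 149524 and 135470 against a vehicle mean of 55.1 ± 7.59 (SD, n = 4). The fetuins Ahsg (171004 and 193143 against 365 ± 108) and Fetub (194808 and 184656 against 101 ± 37.5) bind calcium phosphate and inhibit proteases, respectively. Ceruloplasmin (Cp), the copper-carrying ferroxidase, had 107427 and 153765 against 269 ± 80.3, and corticosteroid-binding globulin (Serpina6) 48016 and 61181 against 105 ± 107. Each of these genes was called higher, and a lack of overlap with the vehicle arrays is part of that rule.

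In the coagulation and fibrinolysis list, 16 of 17 measured genes were higher (medians of 8.51 and 8.16). The 3 fibrinogen chains stood together: beside Fga, Fgb reached 103805 and 170356 (vehicle 98.4 ± 94) and Fgg 174209 and 274301 (vehicle 106 ± 88.7). Antithrombin (Serpinc1), the main inhibitor of thrombin, reached 141408 and 149266 against 54.6 ± 22.1. Plasminogen (Plg), from which the clot-dissolving protease is cut, had 114226 and 119204 against 239 ± 144. Factor IX (F9) had 60923 and 69384 against 67.1 ± 13.4. The vehicle SDs of Fgb and Fgg were close to their vehicle means. In each gene named the set-aside values lay above all 4 vehicle arrays, as a higher call requires.

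Complement genes followed with 14 of 17 higher (medians of 6.25 and 6.53). C3, the central component, had signals of 211189 and 266438 against 446, 367, 367 and 431 in the vehicle arrays. The C1 inhibitor gene Serping1 had 54309 and 84912 against 36.7 ± 12.1, and C9, which forms the pore in target membranes, 73862 and 112229 against 546 ± 227. The genes below 4-fold were C1r, C1s and Masp1, proteases of the initiating steps, whose vehicle signals were already high or moderate. C1r stood at 15450.3 and 22291 against 23510.1 ± 3711, C1s at 30025 and 49963 against 31580.1 ± 2371 and Masp1 at 10013 and 7518 against 3084 ± 204.

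For lipoproteins, 14 of 16 measured genes were higher (medians of 7.73 and 7.70). Apob, the structural protein of very low density lipoprotein, had 117564 and 169053 against 85.6 ± 59.9. Apoc1 (155105 and 170502 against 35.2 ± 13.3) and Apoa2 (155324 and 160850 against 105 ± 42.2) are exchangeable apolipoproteins. Apoe, also made by macrophages, had 158142 and 198306 against 735 ± 135. These 4 genes were among the higher ones, so by the rule they did not overlap the vehicle arrays.

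Acute phase proteins and protease inhibitors were higher in 15 of 16 measured genes (medians of 7.09 and 7.04). Haptoglobin (Hp), which binds free haemoglobin, had 195712 and 269929 against 649, 521, 471 and 357 in the vehicle arrays, and alpha-1 antitrypsin (Serpina1) 178224 and 207926 against 639 ± 87.3. C-reactive protein (Crp) differed between the set-aside arrays, at 22316 and 61854 against 75.9 ± 55.7. A2m was the member below 4-fold; this protease inhibitor, known in the rat as a strong acute phase protein, stood at 729.6 and 1889 against 678, 1025, 675 and 681. Its value in replicate 1 lay within the vehicle range and its value in replicate 4 above it.

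Nitrogen handling was represented by the urea cycle list, in which 9 of 11 measured genes were higher (medians of 4.92 and 4.12). Ass1, argininosuccinate synthase, had 117197 and 96944 against 209 ± 117, and Asl, the next enzyme, 46762 and 26819 against 2479 ± 396. Arginase (Arg1), which releases urea, had 80620.1 and 73058 against 418, 34.1, 348 and 385. Ornithine transcarbamylase (Otc) had 11528 and 14148 against 26 ± 4.14. The 2 members below 4-fold in both arrays were Glud1 and Glul, which make and use glutamate and which the vehicle arrays also expressed (17969.5 ± 1124 and 5178 ± 47.6). Glul, glutamine synthetase, stood at 12883 and 11164.

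Of 28 measured genes of amino acid breakdown, 24 were higher (medians of 5.68 and 5.15). Hpd, an enzyme of tyrosine breakdown, had 139607 and 120696 against 245 ± 145. Tdo2, which opens the tryptophan ring, had 44809 and 77808 against 129.9 ± 98.1. Mat1a, the S-adenosylmethionine synthetase of adult liver, had 95659 and 62417 against 397 ± 119. Ftcd, an enzyme of histidine breakdown, had 49289 and 36244 against 24.6 ± 4.51. None of these overlapped the vehicle arrays, as a higher call requires.

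Glucose and glycogen genes were higher in 12 of 14 (medians of 3.84 and 3.57). Pck1, which commits carbon to glucose synthesis, had 134194 and 116726 against 591, 541, 455 and 613. The glucose transporter Slc2a2 had 24345 and 18915 against 25.2 ± 6.60 and liver glycogen synthase (Gys2) 6117 and 4345 against 38.6 ± 29.9. Pygl and Pklr, liver forms of glycogen phosphorylase and pyruvate kinase, were the 2 below 4-fold. Pygl stood at 6995 and 9283 against 6126, 6573, 7099 and 7363, with replicate 1 inside the vehicle range.

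Fatty acid oxidation genes were higher in 12 of 17 (medians of 3.06 and 2.80). Fabp1, the liver fatty acid binding protein, was the gene whose smaller difference of the 2 arrays was the greatest, with 206749 and 264143 against 58.6, 18.3, 19.1 and 181 and log2 differences of 10.95 and 11.31. Cpt1a, which admits fatty acids into mitochondria, had 46404 and 39205 against 2953 ± 622. Ehhadh, a peroxisomal enzyme of the same pathway, had 13614 and 17516 against 131 ± 89.8.

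Fatty acid and cholesterol synthesis did not stand out in this way. Of 17 measured genes 2 were higher, 1 was lower and 14 were neither, beside 8.02% higher and 6.62% lower over all genes. The medians were 0.13 and -0.36, and that of replicate 1 turned to -0.03 under median scaling. With no signal minimum that of replicate 4 turned to 0.06. The higher ones were Thrsp, a regulator of lipogenesis (11942 and 22527 against 351 ± 69.7), and Dgat2, which completes triglycerides (41519.7 and 35326 against 3219.9 ± 306). The lower one was Sqle, a rate-controlling enzyme of cholesterol synthesis (1289 and 320.1 against 5766 ± 731).

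Bile acid genes were higher in 16 of 18 (medians of 5.83 and 5.59). Cyp7a1, the rate-limiting enzyme of bile acid synthesis, had 6029.5 and 4076 against 319, 81.1, 549.6 and 632. Baat, which joins bile acids to amino acids, had 57993 and 71309 against 95.8 ± 88.9. Slc10a1, the main uptake transporter for bile salts, had 34607 and 39587 against 156 ± 60.5. All 3 lay above the vehicle arrays, as a higher call requires. Among peroxisome and purine enzymes 6 of 10 were higher, including urate oxidase (Uox, 37404 and 42099.5 against 979 ± 149) and Gulo, which makes vitamin C in rodents (24819 and 17015 against 273 ± 48.3).

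Cytochrome P450 genes, which oxidise drugs, steroids and fatty acids, were higher in 18 of 22 (medians of 7.20 and 7.41). Cyp2e1, which oxidises ethanol, had 152260 and 194314 against 954, 800.2, 1012 and 758. Cyp1a2 had 72120 and 56017 against 267 ± 149, Cyp2d2 136831 and 133615 against 102 ± 92.4 and Cyp2c6v1 143250 and 203141 against 50.3 ± 11.1. Members of the Cyp2c and Cyp3a families are close copies, and probes for 1 may bind others, so single members are uncertain.

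Of 24 conjugating and other detoxifying enzymes, 17 were higher and 1 was lower (medians of 3.59 and 3.74). Ugt2b15, which adds glucuronic acid to steroids, had 55106 and 61250.4 against 31 ± 30.4. The lower gene was Gstp1, a glutathione transferase known to be low in adult hepatocytes, with 3108 and 1609 against 92001, 97664, 87604 and 84773. It stood at 3.43% and 1.78% of the vehicle mean.

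Transcription factors and nuclear receptors of hepatocytes were higher in 12 of 18 (medians of 3.87 and 3.17). Hnf4a, a nuclear receptor that many hepatocyte genes require, had 64179 and 48437 against 59.2, 222, 68.3 and 79.3. Onecut1, also called HNF6, had 39424 and 38740.1 against 239, 235, 10.4 and 15.9. Foxa2 had 7550.1 and 10018 against 399 ± 90.5, Prox1 16192 and 12895 against 399 ± 115 and Cebpa 13107 and 10497 against 1035 ± 236. The bile acid receptor Nr1h4 had 4452 and 6060 against 52.3 ± 7.84. All 6 lay above the vehicle arrays in both set-aside arrays, as a higher call requires.

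In the growth hormone, IGF and hormone list 14 of 24 measured genes were higher and 2 lower. Igfals, the plasma partner of IGF complexes, had 11787 and 10397 against 27, 37.8, 48.2 and 49.8, and Igfbp1 77603 and 59091 against 279 ± 228. Angiotensinogen (Agt) had 56424 and 41604 against 219 ± 123. The lower ones were the IGF binding proteins Igfbp6 (109.6 and 49.5 against 26138, 30137, 26585 and 30690.5) and Igfbp5 (844 and 962 against 4649 ± 657). Igf1 had signal on both sides, and its 3 probe sets differed in size. The brightest had 87618 and 107405 against 29677, 27965, 27165 and 26359.7, log2 differences of 1.66 and 1.95 that were below 4-fold, and the highest of the 14 other arrays reached 97449. Another had 18730 and 19932 against 2673 ± 395, log2 differences of 2.80 and 2.89, above the other arrays' highest signal of 15146. The third had 25540 and 61656 against 8213 ± 897, differences of 1.64 and 2.91.

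Hepatocytes near the portal vein and near the central vein express different genes, and members of both sets stood higher. All 10 measured periportal genes were higher (medians of 7.09 and 7.08), among them the histidine-degrading enzymes Hal (15389 and 13811 against 180.1 ± 138) and Uroc1 (31062 and 31191 against 65.8 ± 20). Of 9 pericentral genes 5 were higher, Cyp2e1, Cyp1a2, Cyp7a1, Gulo and Axin2, and 1 was lower. The lower one was Lgr5, a receptor of the Wnt pathway in stem cells and pericentral hepatocytes, with 65.8 and 92.8 against 1075, 1220, 1079 and 1529.8. Of 6 genes of fetal liver with a named probe set, 2 lay below the minimum signal. Among the 4 measured, 0 were higher by the rule, beside 8.02% of all genes. With so few measured, nothing is read from this count. The median differences of these 4 genes were 0.76 and 1.64, and H19, an RNA of fetal tissues, stood at 565 and 1525 against 145, 399, 169.6 and 344.

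**Figure D3:**
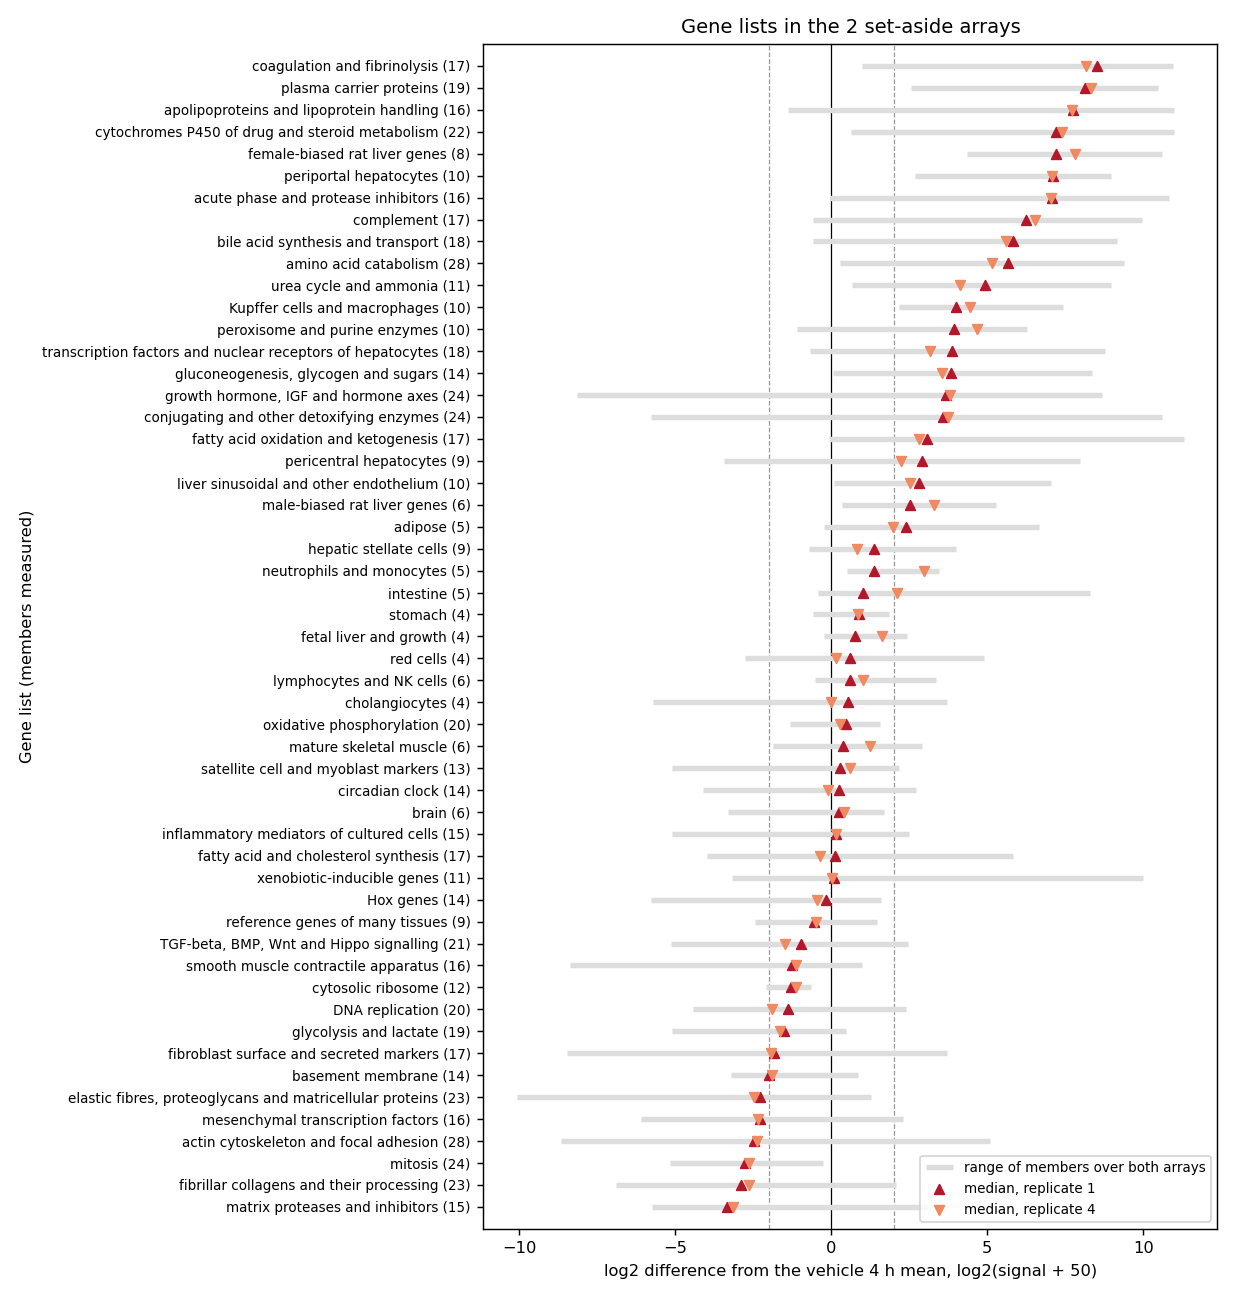
Median log2 difference from the vehicle 4 h mean for each gene list with at least 4 members measured, except the markers given for liver cells. The number measured is in parentheses. Triangles are set-aside replicates 1 and 4, grey bars span the members' values over both arrays, and dashed lines mark 4-fold. Plasma protein, cytochrome P450 and periportal lists stand at the top, and matrix proteases, collagens and mitosis at the bottom.

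Transcripts tied to sex separated the set-aside arrays from all others. Xist, the RNA that silences an X chromosome in female cells, had 46120.2 and 37641 against 41.4, 56.9, 21.7 and 148 in the vehicle arrays, and its highest signal in the 14 other arrays was 297. All 4 Xist probe sets were higher, by 5.85 to 8.73 on the log2 scale. Eif2s3y, a Y-linked translation factor gene, had 47.5 and 87.6 against 10194, 11351, 10934 and 12968, and between 7767 and 13186 in the 14 others. The set-aside arrays thus did not overlap any other array for either gene.

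Uty, another Y-linked gene, did not stand lower. Its brighter probe set had 2852 and 5397 against 1327, 1673, 1325 and 1780.2, and its other probe set 477 and 929 against a vehicle mean of 487 ± 186 (SD, n = 4). Both Uty probe sets were thus below 4-fold in both arrays and did not share the fall of Eif2s3y. Whether the Uty probes bind another transcript was not tested.

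Rat liver expresses many genes at sex-dependent levels that follow the pattern of growth hormone release. Of the 9 female-biased genes with a named probe set, 8 of 8 measured were higher (medians of 7.20 and 7.80, and of 7.04 and 7.17 over all 9 with no minimum). Sult2a1 lay below the minimum, with 358 and 454 against 114 ± 51. Cyp2c12, a steroid sulfate hydroxylase typical of female rats, had 161058 and 183854 against 174, 18.1, 42.7 and 132. Sult2a6, a hydroxysteroid sulfotransferase, had 120918 and 130991 against 40.4 ± 42.9. A1bg had 31510.5 and 46866 against 291 ± 124 and the prolactin receptor (Prlr) 28133 and 21588 against 225 ± 162. None of these overlapped the vehicle arrays, as a higher call requires.

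Of the 9 male-biased genes with a named probe set, 3 of 6 measured were higher (medians of 2.54 and 3.29, and of 1.56 and 2.30 over all 9 with no minimum). The 3 below the minimum were Cyp3a2 (255 and 599 against 40.3 ± 51.6), Obp3 (270.4 and 255 against 143 ± 59.3) and Mup5 (13.5 and 169 against 69.3 ± 47.9). Cyp2c11, the main P450 of male rat liver, had 963 and 1646 against 283, 528, 393 and 115. Both values lay above the vehicle arrays, but only that of replicate 4 was past 4-fold. Cyp2c13 had 689 and 399 against 182, 250, 338 and 198, also above the vehicle arrays and below 4-fold. The higher ones were Cyp3a18 (2241 and 3018 against 56.9 ± 40.6), Slco1a1 (4987 and 7185 against 321 ± 15.8) and Cyp2a2 (809.9 and 2882 against 26.9 ± 19.6). Levels of different genes cannot be compared on these arrays, so the sizes of the 2 lists are set side by side only as differences from vehicle.

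**Figure D4:**
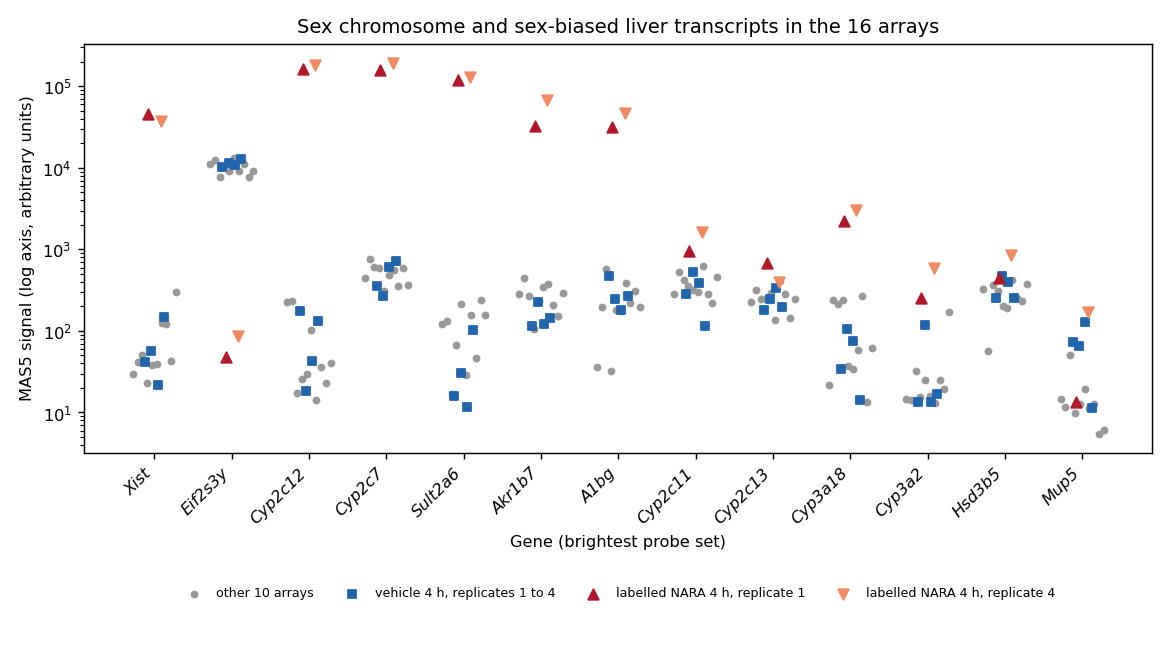
MAS5 signal on a log axis for Xist, Eif2s3y and rat liver genes known for female bias (Cyp2c12 to A1bg) or male bias (Cyp2c11 to Mup5), 1 symbol per array. Xist and the female-biased genes shown stand far above the other 14 arrays and Eif2s3y far below. The male-biased genes shown lie closer to the other arrays, although Cyp3a18 was higher. The picture holds a part of each list: the male-biased Slco1a1 and Cyp2a2, both higher, and the female-biased Sult2a1, below the minimum, are not shown.

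Markers of other liver cells also stood higher. All 10 measured genes of Kupffer cells and other macrophages were higher (medians of 3.997 and 4.44). Clec4f, a lectin of Kupffer cells, had 26756 and 22685 against 51.8, 279, 56.2 and 117. Cd5l, secreted by tissue macrophages, had 19920 and 16780.2 against 162 ± 151, and Cd163, the receptor for haptoglobin bound to haemoglobin, 2465 and 2793 against 71.7 ± 69.1. The summed signal of the list was 87423 and 74867, against 1660 to 3644 in the other 14 arrays.

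Endothelial markers were higher in 6 of 10 (medians of 2.82 and 2.53). The higher ones included the scavenger receptor Stab2 (4511 and 4793 against 176 ± 78.2), Lyve1 (8317 and 10368 against 94.3 ± 75.9) and the Fc receptor Fcgr2b (7127 and 8900 against 19.1 ± 20.4), genes known from the sinusoids of the liver. Pecam1, Emcn, Vwf and Egfl7, found in endothelium of many organs, were below 4-fold in both arrays. All 10 measured genes nevertheless had positive differences in both. Emcn (log2 differences of 1.97 and 1.95) lay just under 4-fold, as did Pecam1 in replicate 1 (1.99 and 1.40). Differences were 1.24 and 1.74 for Vwf and 0.10 and 0.37 for Egfl7. Vwf stood at 470 and 686 against 95.3, 191, 370 and 111.

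Of 9 measured stellate cell markers 2 were higher. Lrat, which stores vitamin A, had 1552 and 1816 against 214, 78.3, 292 and 15.8, and the lectin Colec11 had 11991 and 10005 against 717 ± 170. Reln, a further stellate marker, was bright in the vehicle arrays (9676, 10878, 9999 and 11177) and stood at 6353 and 7773. Of 4 bile duct markers, Epcam was higher (1513 and 1695 against 105 ± 93.2), Spp1 was lower (338 and 374 against 20204, 18001, 23974 and 18751), and Krt19 and Cftr were neither. Spp1, osteopontin, is also made by mesenchymal cells.

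In each list of blood cell markers a minority of the measured genes was higher, beside 8.02% of all genes. Hbb, a haemoglobin chain, had 32089.7 and 21952 against 1383, 1007, 685 and 1144, although 3 of 4 measured red cell genes were neither. Gzma (1357 and 1158 against 223 ± 148) and Ccl5 (3228 and 1957 against 281 ± 93.3) were the higher ones of 6 lymphocyte genes. In the neutrophil and monocyte list 2 of 5 were higher, among them lysozyme (Lyz2, 5057 and 5790.2 against 622 ± 58.6).

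Markers of other organs were mostly dim. In the kidney, pancreas, stomach, lung, heart, prostate and brain lists 0 of 22 measured genes were higher, beside 8.02% of all genes. The other 32 of their 54 genes with a named probe set lay below the minimum signal. With so few measured, the count of 0 is close to that share and is not read as absence of these organs. In the intestine list the higher ones were Apoa4 and Fabp2, of which the rat liver is known to express Apoa4 too. Cidec, a lipid droplet protein (7939 and 4136 against 28.7 ± 6.72), and Lpl (1439.8 and 2398 against 181 ± 103) were higher in the adipose list. Myh1, a fast myosin of muscle, was the higher one of 6 skeletal muscle genes, with 24179 and 33575 against 4463 ± 564. Its 5 probe sets gave log2 differences between 0.72 and 3.12, and Ckm, a defining enzyme of muscle fibres, stood at 751 and 1005 against 445, 1099, 1242 and 775. Myosin heavy chain genes are close copies, so the member behind these signals is uncertain.

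**Figure D5:**
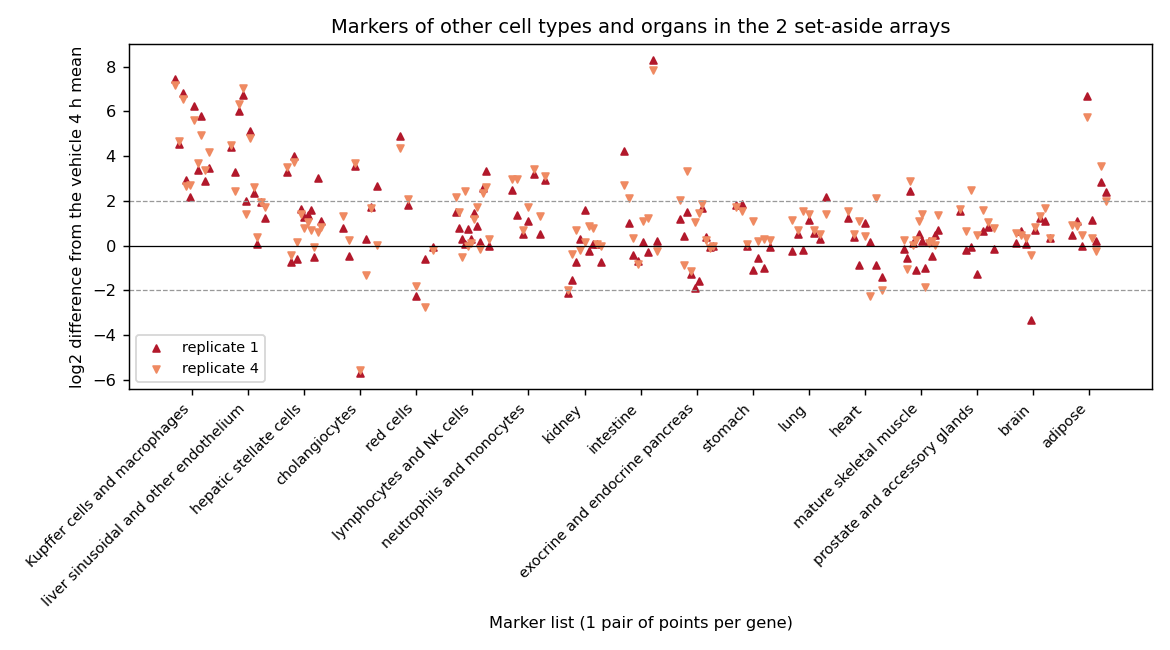
Log2 difference from the vehicle 4 h mean for every marker with a probe set, those below the minimum signal included, in 17 lists of cell types and organs; each gene has 1 upward triangle (replicate 1) and 1 downward triangle (replicate 4), and dashed lines mark 4-fold. All Kupffer cell markers measured lie above 4-fold, and markers of kidney, lung, brain and other organs scatter around 0.

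On the other side stood the matrix, cytoskeletal and cell division genes of the cultured cells. Of 23 measured genes of fibrillar collagens and their processing, 16 were lower and 0 higher (medians of -2.90 and -2.65). Col1a1, a chain of type I collagen, had 1342 and 942 against 63509, 67697, 69219 and 60609 in the vehicle arrays. Col5a2 had 1001 and 1849 against 89239.8 ± 6312 and Lox, which crosslinks collagen, 409 and 788 against 54814 ± 3905. Serpinh1, the collagen chaperone, had 2076 and 2144 against 35251 ± 2411. These signals lay below all 14 other arrays. The summed signal of the list was 57308 and 60401, against 608959 to 912487 in the other arrays.

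Among elastic fibre, proteoglycan and matricellular genes 13 of 23 were lower (medians of -2.27 and -2.48). Periostin (Postn), a matricellular protein of fibroblasts, had 11.6 and 38.5 against 29854, 26861, 33068 and 21992. Lumican (Lum), a proteoglycan that spaces collagen fibrils, had 20.3 and 123 against 40324, 45191, 39414 and 44406. Mfap5, a microfibril protein, had 32.1 and 518 against 83160.3, 100292, 94520.4 and 77917. All of these set-aside signals are too dim to rank the genes by.

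Basement membrane genes were lower in 5 of 14 (medians of -1.998 and -1.89), with Sparc at 10317 and 9375 against 77601 ± 5030.2 and the laminin chain Lamb2 at 836 and 412 against 4229 ± 115. Matrix proteases and inhibitors were lower in 10 of 15 (medians of -3.34 and -3.16). Timp2, an inhibitor of metalloproteinases, had 1536 and 1691 against 83525, 94277, 84891 and 74968, and Mmp2, a gelatinase, 2435 and 2508 against 32160.1 ± 1792. Timp3, a further inhibitor, was higher (2109 and 2830.2 against 307 ± 103). Its probe sets disagreed, since 2 dim ones below the minimum were not past 4-fold.

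Fibroblast markers were lower in 8 and higher in 3 of 17 (medians of -1.85 and -1.92). Thy1, a surface protein of mesenchymal cells, had 103 and 112 against 34226, 32951, 41157 and 37746. S100a4, a calcium-binding protein of fibroblasts, had 287 and 431 against 114257, 139012, 124799 and 100422. Vimentin (Vim), the mesenchymal intermediate filament, had 3082 and 3369 against 120439 ± 18743. The 3 higher ones were the chemokine Cxcl12, the matrix protein Dpt and the ectoenzyme Nt5e. Dpt had 36649.9 and 31458 against 3489.9 ± 485 and Nt5e 4298 and 5666 against 1008 ± 137. Cxcl12 had 28787 and 31982 against 2429 ± 388 on its brightest probe set, but its other 2 probe sets gave log2 differences between -0.86 and 0.75.

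Mesenchymal transcription factors were lower in 8 of 16 (medians of -2.28 and -2.35, and of -1.56 and -1.95 with no signal minimum). Prrx1, a homeobox factor of limb and body wall mesenchyme, had 212 and 391 against 17051, 14726, 18108 and 22700.3, and Twist1 46.6 and 349.9 against 3479 ± 471. Of 14 measured Hox genes, which mark position along the body, 4 were lower, namely Hoxa5, Hoxa9, Hoxa10 and Hoxc9. Hoxa9 had 10.8 and 30.2 against 3268, 3199, 3013 and 3673 and Hoxc9 24.1 and 30.6 against 1295, 1342, 1324 and 1652. The other 10 were neither, and the list medians were -0.15 and -0.45. With no signal minimum, which adds 6 members, these medians turned to 0.02 and 0.28.

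Contractile genes of smooth muscle and myofibroblasts were lower in 5 of 16 (medians of -1.26 and -1.13). Tagln, an actin-bundling protein, had 46.2 and 43.2 against 16611, 13876, 14703 and 9238, and tropomyosin 2 (Tpm2) 323 and 56.2 against 35036 ± 2612. Acta2, smooth muscle actin, had 1390.3 and 891 against 6344 ± 808. In the list of actin cytoskeleton and focal adhesion 14 of 28 were lower and 2 higher. The lectin Lgals1 had 237 and 491 against 114604, 132202, 123721 and 97914 and caveolin 1 (Cav1) 609.9 and 440.5 against 59304 ± 5561. The higher ones were the integrin chains Itga1 (3863 and 3576 against 65.5 ± 16.1) and Itgb3 (3943 and 3213 against 398 ± 81.4).

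In the list of TGF-beta, BMP, Wnt and Hippo signalling 7 of 21 were lower and 1 was higher. All 3 TGF-beta ligand genes were lower: Tgfb1 had 145 and 69.2 against 1248 ± 139.9, Tgfb2 96.4 and 89.5 against 3248 ± 256 and Tgfb3 391 and 906 against 3904 ± 408. Bmp2 was the higher one (2579.8 and 3417 against 595 ± 152). Inflammatory mediators were lower in 5 of 15, among them Ptgs2, an inducible prostaglandin synthase (123 and 362 against 4111 ± 269), and the chemokine Ccl2 (117 and 153 against 1322 ± 230). The medians of that list, 0.15 and 0.14, turned to -0.01 and -0.26 under median scaling.

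Few markers of the labelled cell type passed the rule. Of 13 measured markers of satellite cells and myoblasts 1 was lower, the chemokine receptor Cxcr4 (58.5 and 373 against 3689, 4583, 2510.1 and 4146), and 0 were higher. Over all genes 6.62% were lower and 8.02% higher, so nothing is read from these counts. The median vehicle signal of the list was 433, so many members were dim in the cultured cells too. Its summed signal was 41581 and 32120, against 14013 to 25150 in the other 14 arrays. Myog, a transcription factor of muscle differentiation, had 1439.9 and 1985 against 889, 959, 1929 and 800.3, and replicate 1 lay within the vehicle range. Des, the muscle intermediate filament, had 519.8 and 706 against 551, 712, 918 and 877, with replicate 4 inside that range and replicate 1 just below it. Myod1 lay below the minimum signal, and Pax7 and Myf5, which define satellite cells, had no named probe set in the annotation used here. The list medians were 0.29 and 0.59.

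Many mitosis genes stood lower, and most DNA replication genes were neither higher nor lower. All 24 of 24 measured mitosis genes had negative differences in both arrays, of which 14 passed the rule and 10 did not (medians of -2.75 and -2.65). Cdk1, the kinase that starts mitosis, had 76.3 and 91.4 against 4717, 4274, 6001 and 3406. Mki67, a marker of dividing cells, had 309 and 435 against 2494, 1961, 3431 and 2340.5. DNA replication genes were lower in 4 of 20 and higher in 1, and 15 were neither (medians of -1.39 and -1.90). Pola1, a subunit of the polymerase that starts new strands, had 258 and 77.4 against 1780.2 ± 79.1, and the higher one, Chaf1b, had 1062 and 1402 against 271 ± 223.

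Glycolysis genes were lower in 4 of 19 (medians of -1.52 and -1.63). Aldoa and Aldoc, aldolases of muscle and brain, had 10614 and 6731 against 62431 ± 3579.8 and 172 and 109 against 4460.2 ± 163. Eno2 had 507 and 248 against 10204 ± 877, and the fourth was the phosphofructokinase Pfkp. Oxidative phosphorylation genes were neither in 20 of 20 (medians of 0.47 and 0.30, the second turning to -0.14 under median scaling). Over all genes 8.02% were higher and 6.62% lower. Ribosomal protein genes were below 4-fold in all 12, but all had negative differences in both arrays (medians of -1.28 and -1.13, which stayed negative under both other scalings). Rpl3 stood at 27721 and 35899 against 119895, 137035, 119344 and 100607.

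Of 14 measured circadian genes 11 were neither. Per1 (1522 and 1607 against 298 ± 229) and Nfil3 (7384 and 5515 against 1090 ± 139) were higher and Bhlhe41 was lower (312 and 52.6 against 1742 ± 255). Over all genes 8.02% were higher and 6.62% lower, so nothing is read from the circadian count. In the xenobiotic-inducible list 4 of 11 measured genes were higher (Cyp3a23-3a1, Cyp4a1, Mt1 and Acot1), 1 was lower and 6 were neither. The metallothionein Mt1 had 3136 and 2605 against 156 ± 93.9 and the acyl-CoA thioesterase Acot1 1059.8 and 643 against 63.2 ± 63.7. Nqo1, a quinone reductase, was the lower one, with 8407 and 9060.1 against 71950.1, 87230.4, 77930.5 and 68754. Of 9 reference genes of many tissues 8 were neither and Ywhaz was lower (5114 and 4299 against 23838 ± 1424). Beside the same shares nothing is read from that count either. Fkbp5, which steroid receptors activate, stood at 1799.6 and 1316 against 1280.3, 817, 870.1 and 424 in the vehicle arrays and at 1728 and 1189 in NARA 4 h replicates 2 and 3.

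Some of the brightest transcripts of the cultured cells were close to the floor of the signal in the set-aside arrays. Of 527 probe sets with a vehicle mean of at least 20000, 19 in replicate 1 and 21 in replicate 4 stood below 1% of that mean. The median over these 527 was 38.7% of the vehicle mean in replicate 1 and 36.4% in replicate 4. In the other direction, 160 probe sets had at least 50000 in both set-aside arrays. For 82 of them the highest signal in the other 14 arrays was below 1% of the lower set-aside value.

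The 2 arrays differed from each other more than vehicle arrays did. Among 12101 probe sets with a mean of at least 1000 over the pair, 65 (0.537%) differed by 4-fold, 34 higher in replicate 4 and 31 higher in replicate 1. In the 6 pairs of vehicle 4 h arrays this share was between 0 and 0.0181%. Hepcidin (Hamp), the iron-regulating hormone of the liver, had 5921 and 49034, and the thyroxine carrier Serpina7 1086 and 6005, both higher in replicate 4. Aldehyde oxidase (Aox1) had 5121 and 30502, below and above the vehicle mean of 17944 ± 2709.9. Higher in replicate 1 were the sulfotransferase Sult2a2 with 25228 and 1099, the immediate early gene Egr1 with 15586 and 2549.9, and the glutathione transferase Gstt1 with 2199 and 240.2. These are single arrays, so the differences have no replicate check.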

How the data were processed

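The data are 16 Affymetrix Rat Genome 230 2.0 arrays of total RNA, 1 per sample. The deposited values are intensity on a linear scale, computed by the authors with MAS5, per the submitters' processing notes. Per the series' design text, the arrays were scaled to the same trimmed mean, 1500. Each sample gave 5 µg of RNA for labelling. The labels' protocols name Trizol extraction and the design text a column kit, and the sources used here do not assign them to arrays. Detection calls were not used, so a low signal is not shown to be absent.

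Of 31099 rows, 57 controls were left out. Differences are log2(signal + 50) of each set-aside array minus the mean of the 4 vehicle 4 h arrays, for probe sets that averaged 300 or more across these 6 arrays. Of the 22751 measured, 16517 had 1 symbol in the platform annotation, 370 several and 5864 none. The brightest probe set stood for a gene. The number of arrays limits the precision, and no test was run, because the arrays were chosen on these values. Pairwise array differences used probe sets with a mean of at least 1000. Python 3.11.15, numpy 2.4.6 and pandas 2.3.3 were used, and the counting was tested on simulated data.

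The members, the 60 gene lists (936 genes, of which 809 had a named probe set and 715 were measured) and the settings were chosen with earlier results of these data known. Genes were named by a rule: the 25 greatest differences per direction, up to 8 per list, all cell type markers and the 10 greatest differences per direction between the 2 arrays, with fewer described. Exceptions within a list (A2m, C1r, C1s, Masp1, Glud1, Pygl, Pklr, Igfbp5, Timp3, Dpt, Nt5e, Itgb3), Myod1, Mup5, Sult2a1, Cyp3a2 and Obp3 fall outside it and were chosen after their values were seen. So were the limits of 20000, 50000 and 1% for the brightest probe sets, the 64-fold and 16-fold promoter groups and the genes described within the rule. Promoters are those of the RefSeq table for GRCr8. Alternatives were other offsets, signal minimums, scalings, fold sizes and comparison arrays, the mean over a gene's probe sets, leaving out each array in turn, and pairing by replicate number.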

Additional observations from a re-analysis of the deposited data

Results flagged for a closer look

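Within the vehicle 4 h and the NARA 4 h group, 374 sets of 4 values (187 named genes in each group) were searched for 1 array far from the other 3 by Dixon's ratio of the gap to the whole range, at its 95% critical value. In 16 of them 1 array stood apart. Chance alone marks about 1 set in 20 in the vehicle group. In the NARA 4 h group 2 arrays were chosen for standing apart from the rest, and a split of 2 against 2 hides single arrays, so that share does not apply there.

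In the NARA 4 h group there were 2 such genes, both concerning a set-aside array. C1r, a complement protease, had 15450.3 in set-aside replicate 1 and 21504 to 22291 in the other 3 arrays of that label, set-aside replicate 4 included. Mup5, a urinary protein gene of male rat liver, had 169 in set-aside replicate 4 and 11.8 to 14.7 in the other 3, all below the minimum used for measured probe sets.

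In vehicle 4 h replicate 1, Axin2 stood at 194 (others 499.9 to 576) and Uox at 758 (others 1035 to 1083). In replicate 2, A2m stood at 1025 (others 675 to 681), Arg1 at 34.1 (others 348 to 418), Cyp2d2 at 239.6 (others 44.1 to 63.7), Cyp3a2 at 118 (others 13.3 to 16.9), Fcgr2b at 49.6 (others 7.75 to 10.6), Serping1 at 18.8 (others 40.1 to 45.1) and Sult2a1 at 37.7 (others 132.5 to 144). In replicate 3, C1r stood at 29024 (others 20948 to 22053), Slc10a1 at 246 (others 116 to 131) and Sqle at 6851 (others 5311 to 5544). In replicate 4, Hoxc9 stood at 1652 (others 1295 to 1342) and Itgb3 at 519.7 (others 347 to 367).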

How the results depend on the processing

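The counts of 1591 higher and 1270 lower probe sets were within 1.5 times of these values under offsets of 1 (1820 and 1380) and 200 (1169 and 937), no signal minimum (1746 and 1293), quantile normalization (1491 and 1400), median scaling (1276 and 1621) and 3 other comparison sets: the 13 kept arrays (1555 and 1200), NARA 4 h replicates 2 and 3 (1604 and 1246) and the 7 kept arrays of 48 h (1568 and 1183). A minimum of 1000 gave 1034 higher and 1012 lower ones, since fewer probe sets were measured. At 2-fold the counts were 3616 and 3446, and at 16-fold 514 and 223. Leaving out each array in turn gave 1585 to 2027 higher and 1264 to 2018 lower ones. The 2018 came without NARA 4 h replicate 4, when replicate 1 alone had to pass. Of the list medians past 4-fold, 862 of 885 values under the alternatives were still past it and all 885 kept their direction. Of the named genes past 4-fold, all 1252 values under other offsets and scalings kept their direction and 1228 were still past it. The other 24 concerned Acot1, Axin2, Bhlhe41, Bmp2, Chaf1b, Cyp2c11, Fabp2, Gzma, H19, Nfil3, Nt5e, Per1, Sqle and Tgfb3. Sizes were less stable than directions. Of all values under the alternatives, 751 of 1784 list medians and 635 of 1456 named-gene differences moved by at least 1 SD of the vehicle arrays. Among those past 4-fold, list medians moved by a median of 0.12 and at most 4.29 log2 units. For named genes past 4-fold the median move was 0.31 and the greatest 2.35. With a replicate block, an alternative added after seeing the data in which each set-aside array was set against the vehicle array of its own number, 1474 were higher and 1250 lower. The labels do not say that a number links samples. Precision is limited by the number of arrays and by dim signals: 883 higher probe sets had a vehicle mean under 300, and 480 lower ones were under 300 in both set-aside arrays.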
